A study of Mus musculus with 39 samples.

Results

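The Cyp4a genes encode cytochrome P450 enzymes that hydroxylate the terminal (omega) carbon of fatty acids. The genes were chosen by name, Cyp4a10, Cyp4a12a, Cyp4a12b, Cyp4a14, Cyp4a31 and Cyp4a32, and their probes by the RefSeq transcript that each array feature is designed for. Probes were found for 4 of the 6 genes: Cyp4a14 had 1 probe, and Cyp4a10, Cyp4a12a and Cyp4a31 had 2 each. These 7 probes are among 25903 probes for RefSeq transcripts, and the 4 genes are among 17016 named genes. No probe was listed for Cyp4a12b or Cyp4a32. The family was picked because its members stood out in the AggE-vs.-Ctrl differences of these same arrays, so for the members those differences are given as a description, without p-values.

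Omega hydroxylation is a side route of fatty acid breakdown: the hydroxylated acid is oxidized to a dicarboxylic acid, which peroxisomes and mitochondria then shorten. In mouse liver, Cyp4a10 and Cyp4a14 are textbook targets of the fatty acid receptor PPARα and are induced by fasting and by fibrate drugs, whereas Cyp4a12a is known as the male-biased member and as a producer of 20-HETE from arachidonic acid. The genes lie in a cluster on chromosome 4. In the RefSeq annotation of the GRCm38.p6 assembly, used here for names and order alone, the order of the protein-coding genes is Cyp4a29, Cyp4a12a, Cyp4a12b, Cyp4a30b, Cyp4a14, Cyp4a10, Cyp4a31, Cyp4a32 and the related Cyp4b1. Cyp4a14 and Cyp4a10 are direct neighbours, whereas pseudogenes and a long non-coding RNA gene lie between some of the others. Cyp4a29 and Cyp4a30b were not among the genes chosen. Close relatives can share a probe, and probe sequences were not used here, so how far each probe also reads a neighbour is unknown.

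Livers came from 39 singly housed C57BL/6J males that entered the study at 5 to 6 weeks of age. AggE mice spent 6 hrs a day inside the home cage of a trained SJL aggressor, with brief attacks, on 5 or 10 consecutive days. Ctrl mice had the same cage-within-cage sessions and the same food deprivation without an aggressor, and all mice met the aggressor cue across a partition shortly before collection. Livers were taken 24 hrs after either regimen, 1.5 wks after the 5-day regimen (4 Ctrl and 5 AggE mice for each of these) and 4 wks after the 10-day regimen (6 Ctrl and 6 AggE mice). Each mouse was grouped by the label of its own liver RNA, and other labels differ from it: among the mice taken at 1.5 wks, the titles of all 5 AggE mice carry the prefix of the 10-day AggE mice (T10) and that of Ctrl mouse 4 a prefix (HC10) found on no other mouse, and the descriptions of the 5 AggE mice taken 24 hrs post-5-day open with 1 day in place of 5 days. Whether these mice had the regimen of their group is not settled by the labels. Each liver RNA (Cy-5) was hybridized with a reference RNA pooled from mouse cell lines (Cy-3) on 1 array, and a level below is the normalized log2 ratio of liver to reference. This ratio sets a probe against itself in other mice and not against another probe.

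The livers carried the markers of their label: all 11 measured hepatocyte markers were well above background in Cy-5 on all 39 arrays, against 0 of 8 kidney markers, 0 of 5 adipose and 0 of 7 pancreas markers. Most markers of these other tissues were nevertheless well above background on some arrays, since only 2 kidney markers, and no adipose or pancreas marker, were so on none. At 4 wks 2 kidney, 1 adipose and 4 pancreas markers were well above background on every array of the Ctrl group and as many on every array of the AggE group, and their part in the Cyp4a values was not tested. In whole liver, fewer cells of a type and less RNA per cell cannot be told apart. The share of RefSeq probes well above background differed widely between arrays, up to 79.6% in a Ctrl mouse at 4 wks. Among mice taken 24 hrs post-5-day it was 21.1% to 37.0% in AggE and 33.3% to 40.2% in Ctrl mice, and its part in the values of that comparison was not tested. In both 24-hr comparisons no slide held both Ctrl and AggE mice, so slide and exposure cannot be told apart there. Of the 7 Cyp4a probes, Cyp4a14, Cyp4a31 probe 1 and Cyp4a12a probe 1 were well above background on 39 of 39 arrays, Cyp4a12a probe 2 on 38, Cyp4a10 probe 1 on 36, Cyp4a10 probe 2 on 26 and Cyp4a31 probe 2 on 2. In Cy-3, the 7 probes were well above background on 0 to 35 arrays, so the reference side of these ratios was often near background.

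**Figure D1:**
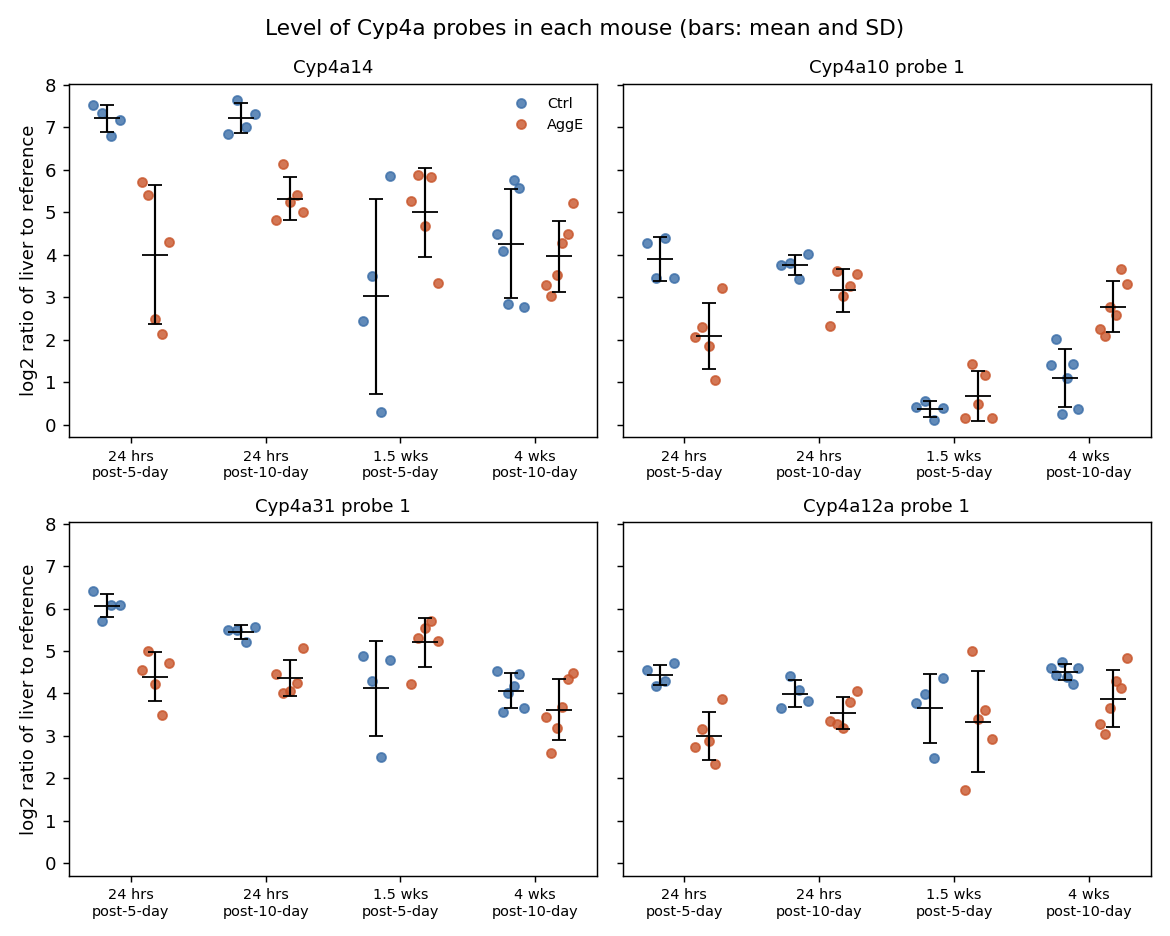
Level (log2 ratio of liver to reference) of the brighter probe of each Cyp4a gene in each mouse (points), with group mean and SD (bars), for Ctrl (blue) and AggE (orange) mice at the 4 times. At 24 hrs post-5-day stressor the AggE points of all 4 probes lie below every Ctrl point, and at 4 wks only the Cyp4a10 points of AggE mice all lie above the Ctrl points.

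At 24 hrs post-5-day stressor, AggE mice had lower levels of all 4 measured Cyp4a genes. Cyp4a14 was 9.21-fold lower, Cyp4a10 3.48-fold by its brighter probe, Cyp4a31 3.19-fold by its brighter probe and Cyp4a12a 2.71-fold and 2.43-fold by its probes. Of the 7 probes, 5 were at least 2-fold lower at an unadjusted p of at most 0.05, limits that 0.0927% of all probes met in that direction. For 4 probes every AggE mouse lay below every Ctrl mouse, as for 5.11% of all probes, and 4 passed an adjusted p of 0.05 (in limma, with Benjamini-Hochberg adjustment), as did 3.23% of all probes. This contrast was used to choose the family, and nothing is read from these shares.

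The Cyp4a14 level was 7.52, 7.34, 6.79 and 7.18 in the Ctrl mice and 5.71, 5.40, 2.48, 2.14 and 4.29 in the AggE mice. The groups did not overlap, and AggE mice 3 and 4 were the lowest. Their arrays also had the lowest shares of RefSeq probes well above background (23.2% and 21.1%, against 30.1% to 37.0% in the other AggE mice). The difference was -3.20 ± 0.77 (log2, SE, n = 5 and 4). Cyp4a10 probe 1 read 4.28, 3.45, 4.39 and 3.45 in Ctrl and 2.06, 2.30, 1.85, 1.06 and 3.21 in AggE mice, a difference of -1.80 ± 0.37. Again no AggE mouse reached the Ctrl range, and AggE mouse 4 was lowest.

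Cyp4a31, a close neighbour of Cyp4a10, gave 6.40, 5.72, 6.07 and 6.09 in Ctrl and 4.55, 5.00, 4.22, 3.50 and 4.72 in AggE mice with probe 1, a difference of -1.67 ± 0.38. The groups were separate, with AggE mouse 4 lowest here too. Cyp4a12a probe 1 read 4.56, 4.18, 4.30 and 4.72 in Ctrl and 2.73, 3.16, 2.89, 2.35 and 3.87 in AggE mice, a difference of -1.44 ± 0.41 without overlap. Cyp4a12a probe 2 differed by -1.28 ± 0.52, and its groups overlapped through AggE mouse 5 (3.55), which was also the highest AggE mouse for both Cyp4a10 probes and for Cyp4a12a probe 1. AggE mouse 5 had the highest share of RefSeq probes well above background in its group (37.0%). It was also the only mouse of its group on another slide. The 2 dim probes did not show the difference at this size: Cyp4a10 probe 2 differed by -0.34 ± 0.23, and Cyp4a31 probe 2, not well above background on any array of these groups, by 0.07 ± 0.09.

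The median over the 7 probes was -1.44, beside 0.003 over all probes. Since the reference channel was dim, the liver channel was also read alone, as the Cy-5 spot intensity less its local background. For Cyp4a14 this was 4035, 2410, 2680 and 3379 units in Ctrl and 674, 473.5, 92.5, 75.5 and 415 units in AggE mice. The Cyp4a14 spot was dimmer in every AggE mouse than in any Ctrl mouse. The 75th percentile of all spots was 13.0 to 19.0 units in Ctrl and no lower than 15.5 units in AggE mice, although fewer probes were well above background in AggE mice, as given above, and the part of that difference in these values was not tested. Relative to that percentile, Cyp4a14 stood at 141 to 269 times in Ctrl and 3.78 to 40.8 times in AggE mice. Cyp4a10 probe 1 stood at 13.4 to 29.4 times in Ctrl and 1.92 to 9.26 times in AggE mice, and Cyp4a31 probe 1 at 75.2 to 146 and 8.65 to 41.3 times, both without overlap. Cyp4a12a probe 1 stood at 23.5 to 40.1 times in Ctrl and 4.12 to 26.9 times in AggE mice and overlapped through 1 AggE mouse.

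**Figure D2:**
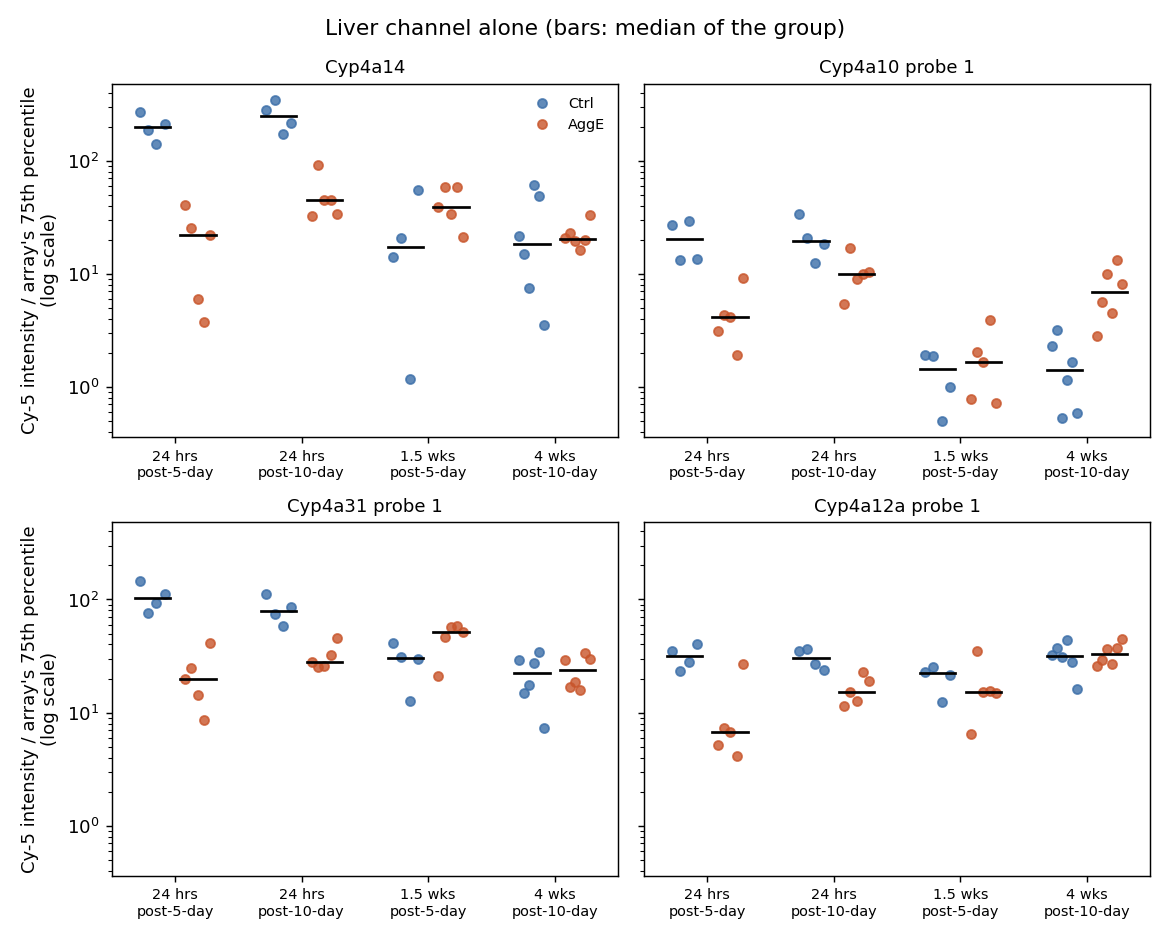
Cy-5 (liver) spot intensity less local background, divided by the 75th percentile of the same quantity over the array (log axis), for each mouse (points) and the group median (bars), Ctrl in blue and AggE in orange. For Cyp4a14 at 24 hrs post-5-day stressor the Ctrl mice lie between 141 and 269 and the AggE mice between 3.78 and 40.8.

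At 24 hrs post-5-day stressor 3 probes changed sign under 1 alternative, in which the signals that Feature Extraction had already background-corrected and dye-normalized were loess- and quantile-normalized a second time. From these renormalized processed signals, Cyp4a10 probe 1 (0.94), Cyp4a31 probe 1 (1.33) and Cyp4a12a probe 1 (1.06) were higher in AggE mice. Cyp4a31 probe 1 met the 2-fold limits in that opposite direction, and Cyp4a14 (-0.999) and Cyp4a12a probe 2 (-0.66) no longer met them. Before the second normalization, the processed liver-to-reference ratio of Cyp4a10 probe 1 was 10.4 to 84.8 in AggE and 95.2 to 130 in Ctrl mice, and that of Cyp4a14 was 13.1 to 1303 and 1425 to 2841, both lower in every AggE mouse, whereas the ratios of Cyp4a31 probe 1 (93.1 to 539 and 371 to 527) and Cyp4a12a probe 1 (24.8 to 147 and 96.5 to 154) overlapped with lower medians in AggE mice. The cause of the change of sign was not tested.

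From the series table, which holds the log ratios of the processed signals without that step, Cyp4a10 probe 1 (-1.19), Cyp4a31 probe 1 (-0.60) and Cyp4a12a probe 1 (-0.55) were lower in AggE mice but missed the limits, as did the Cyp4a12a probes under a random block for the slide (-1.16 and -0.75) and Cyp4a12a probe 2 in Cy-5 alone (-0.70), while leaving out Ctrl mouse 3, AggE mouse 3 or AggE mouse 4 ended the call of Cyp4a12a probe 2 alone (-1.02, -1.12 and -0.99).

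At 24 hrs post-10-day stressor the brighter or only probe of each gene was lower by less than at 24 hrs post-5-day stressor. The 2 dim probes were not: Cyp4a10 probe 2 differed by -0.42 (against -0.34) and Cyp4a31 probe 2 by -0.22 (against 0.07). Cyp4a14 was 3.70-fold and Cyp4a31 2.11-fold lower in AggE mice by the brighter probe, and these 2 of 7 probes met the 2-fold limits, beside 0.0193% of all probes. All 7 probes had a lower mean in AggE mice, with a median of -0.60 beside -0.003 over all probes. The same 2 probes had groups that did not overlap (0.726% of all probes, lower in AggE), and 0 passed the adjusted p (0.0734% of all probes).

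**Figure D3:**
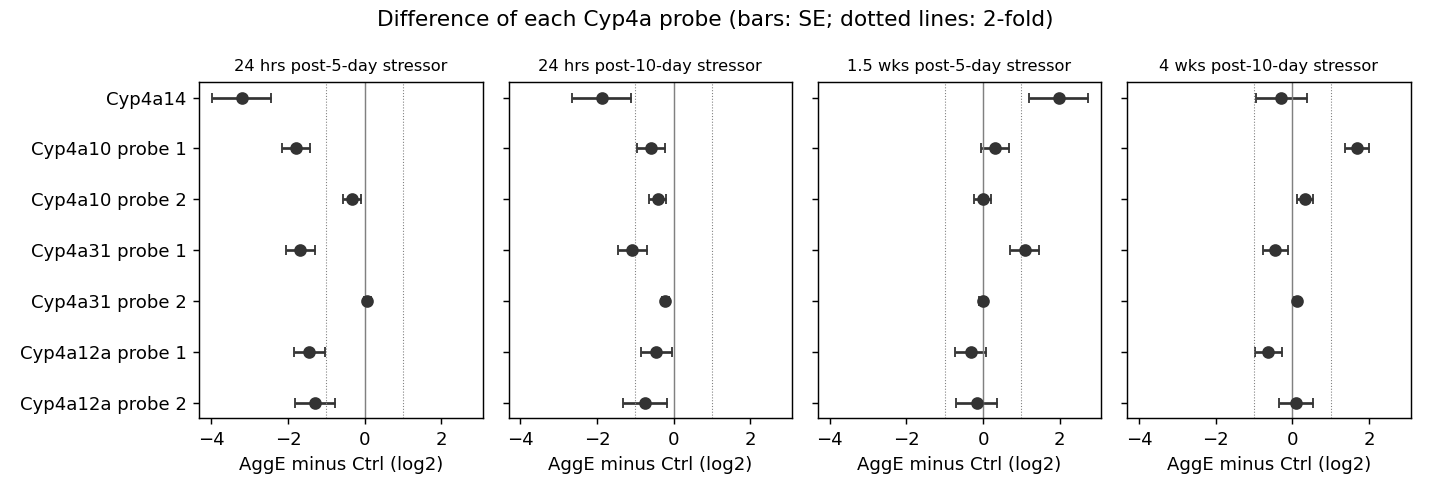
AggE-minus-Ctrl difference (log2) of each of the 7 Cyp4a probes at the 4 times (points) with its SE (bars), with dotted lines at 2-fold. The points of Cyp4a14 move from -3.20 and -1.89 at 24 hrs to 1.98 at 1.5 wks, and only Cyp4a10 probe 1 lies beyond 2-fold at 4 wks (1.68).

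Cyp4a14 read 6.85, 7.65, 7.01 and 7.32 in Ctrl and 4.82, 6.13, 5.25, 5.42 and 5.00 in AggE mice, a difference of -1.89 ± 0.77. The AggE mice were closer together than at 24 hrs post-5-day stressor (SD 0.51 and 1.64) and all stayed below the Ctrl mice. Cyp4a31 probe 1 read 5.50, 5.50, 5.20 and 5.57 in Ctrl and 4.46, 4.00, 4.07, 4.24 and 5.06 in AggE mice, a difference of -1.08 ± 0.38. Only AggE mouse 5, which alone of its group was on another slide, came near the Ctrl range.

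For Cyp4a10 probe 1 the Ctrl mice (3.77, 3.81, 3.44 and 4.02) and AggE mice (2.33, 3.62, 3.03, 3.27 and 3.54) overlapped, with a difference of -0.60 ± 0.37. Cyp4a12a differed by -0.46 ± 0.41 and, with 1 Ctrl value missing as an outlier spot, by -0.74 ± 0.57 for probe 2. Neither gene met the 2-fold limits. In the liver channel alone, Cyp4a14 stood at 174 to 347 times the array's 75th percentile in Ctrl and 32.3 to 91.4 times in AggE mice, and Cyp4a31 probe 1 at 57.8 to 112 and 25.3 to 45.3 times, again without overlap. Cyp4a12a probe 1 stood at 23.9 to 36.3 and 11.4 to 22.9 times, also without overlap. Cyp4a10 probe 1 overlapped, at 12.5 to 34.1 and 5.42 to 17.0 times.

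The Cyp4a14 value fell short of the limits without background subtraction (-1.24) and under a random block for the slide (-1.94), and was near 0 from the renormalized processed signals (-0.09) and from the log ratios of the series table (0.01). In AggE mouse 5 the processed Cyp4a14 ratio was 2532, against a group median of 345, with the lowest processed reference signal of the group (6.81 units). Its part in these values was not tested. Cyp4a31 probe 1 left the limits without AggE mouse 2 (-0.99), from the renormalized processed signals (-0.87), from the series table (-0.88) and under a random block for the slide (-0.96).

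At 1.5 wks post-5-day stressor, Cyp4a14 and Cyp4a31 were on the other side, higher in AggE than in Ctrl mice by 3.94-fold and, for probe 1, by 2.12-fold. These 2 of 7 probes met the 2-fold limits (0.0309% of all probes, higher in AggE). None of the 7 had groups that did not overlap (0.425% of all probes) and none passed the adjusted p in limma (0% of all probes, against 632 of 25903 probes with an unadjusted p of at most 0.05). The median over the 7 probes was -0.006, beside -0.006 over all probes. It is the value of Cyp4a31 probe 2, which was well above background in 0 of 5 AggE and 0 of 4 Ctrl mice.

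The Ctrl mice varied widely for Cyp4a14, at 2.44, 3.49, 0.30 and 5.84, whereas the AggE mice read 5.26, 5.89, 4.67, 5.83 and 3.34. Ctrl mouse 4 lay among the highest AggE mice, and Ctrl mouse 3 was far below all others. The difference was 1.98 ± 0.77, and without Ctrl mouse 3 it was 1.07 and no longer met the limits. Without Ctrl mouse 4, whose title prefix differs from that of the other Ctrl mice, it was 2.92. Cyp4a31 probe 1 read 4.88, 4.29, 2.50 and 4.80 in Ctrl and 4.23, 5.30, 5.53, 5.71 and 5.23 in AggE mice, a difference of 1.08 ± 0.38. The same Ctrl mouse was lowest, and without it the difference was 0.55; without AggE mouse 4 it was 0.96 and also missed the limits.

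Cyp4a10 was low in both groups at this time. Probe 1 read 0.41, 0.57, 0.10 and 0.39 in Ctrl and 0.16, 1.43, 0.48, 1.18 and 0.15 in AggE mice, and was well above background in 3 of 4 Ctrl and 3 of 5 AggE mice. Cyp4a12a differed by -0.32 ± 0.41 and -0.17 ± 0.52, with wide overlap. AggE mouse 2 and Ctrl mouse 4 were scanned on a different day from the rest and were the highest of their groups for both Cyp4a12a probes and for Cyp4a14. On the first scan day (4 AggE and 3 Ctrl mice) Cyp4a14 differed by 2.70 and Cyp4a31 probe 1 by 1.29, and on the second day (1 of each) by 0.04 and 0.51. On the slide that held both groups (1 AggE and 3 Ctrl mice) the differences were 1.26 and 1.34, a value that rests on a lone AggE mouse. Neither probe met the limits under a random block for the slide (1.22 and 0.97), without normalization between arrays (1.97 and 1.17) or from the series table (2.10 and 0.61). Over 23 alternatives Cyp4a14 met the limits in 16 and Cyp4a31 probe 1 in 9.

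At 4 wks post-10-day stressor the family divided. Cyp4a10 was 3.21-fold higher in AggE mice by its brighter probe, while Cyp4a14, Cyp4a31 and Cyp4a12a were not higher by 2-fold with any probe. This 1 of 7 probes met the 2-fold limits (0.104% of all probes, higher in AggE), had groups that did not overlap (0.641% of all probes) and passed the adjusted p (3.44% of all probes). The median over the 7 probes was 0.10, beside 0.01 over all probes.

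Cyp4a10 probe 1 ranged from 0.25 to 2.02 (median 1.25) in the Ctrl mice and from 2.09 to 3.65 (median 2.68) in the AggE mice. All 6 AggE mice were above all 6 Ctrl mice, and the difference was 1.68 ± 0.32. Probe 2, dimmer, was 0.08 to 0.64 in Ctrl and 0.40 to 0.87 in AggE mice and differed by 0.33 ± 0.20. There, 3 AggE mice exceeded the Ctrl range. In the liver channel alone, probe 1 stood at 0.53 to 3.18 times the array's 75th percentile in Ctrl and 2.82 to 13.4 times in AggE mice, so that the ranges met at their edges.

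Cyp4a14, next to Cyp4a10 on the chromosome, ranged from 2.77 to 5.76 in Ctrl and from 3.02 to 5.21 in AggE mice, a difference of -0.29 ± 0.66. The AggE mice lay wholly within the Ctrl range. Cyp4a31 probe 1 ranged from 3.55 to 4.54 in Ctrl and from 2.60 to 4.49 in AggE mice (-0.44 ± 0.33). Cyp4a12a probe 1 ranged from 4.22 to 4.75 in Ctrl and from 3.04 to 4.83 in AggE mice (-0.62 ± 0.35), with 4 of 6 AggE mice below the lowest Ctrl mouse. Its probe 2 did not show this (0.10 ± 0.45). Probe 1 met the 2-fold limits, lower in AggE mice, without normalization between arrays (-1.23) and with the slide as a fixed block (-1.12). In the liver channel alone, Cyp4a12a probe 1 was not lower in AggE mice. It stood at 16.1 to 43.5 times the array's 75th percentile in Ctrl and 25.9 to 44.6 times in AggE mice (medians 31.4 and 33.1).

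Within each array, the ratio of Cyp4a10 probe 1 to Cyp4a14 changed by 1.97 ± 0.46 (log2, SE) between Ctrl and AggE mice at 4 wks, and its ratio to Cyp4a31 probe 1 by 2.13 ± 0.34. Both ratios were higher in every AggE mouse than in every Ctrl mouse. At 24 hrs post-10-day stressor the ratio of Cyp4a10 probe 1 to Cyp4a14 also differed without overlap, by 1.29 ± 0.25, where Cyp4a14 was lower by more. At 24 hrs post-5-day stressor the ratio of Cyp4a10 probe 1 to Cyp4a31 probe 1 differed by -0.12 ± 0.29, within its error.

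The Cyp4a10 probe 1 difference at 4 wks was above 0 in all 25 alternatives run for it (1.21 to 2.02), but missed the limits from the series table (1.39) and with the slide as a fixed block (1.29). On the 1 slide with both groups, AggE mouse 1 read 2.25 and the Ctrl mice 1.09, 1.43 and 0.36. In the liver channel alone, Cyp4a10 probe 1 differed by 1.21 and Cyp4a14 by 0.25.

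**Figure D4:**
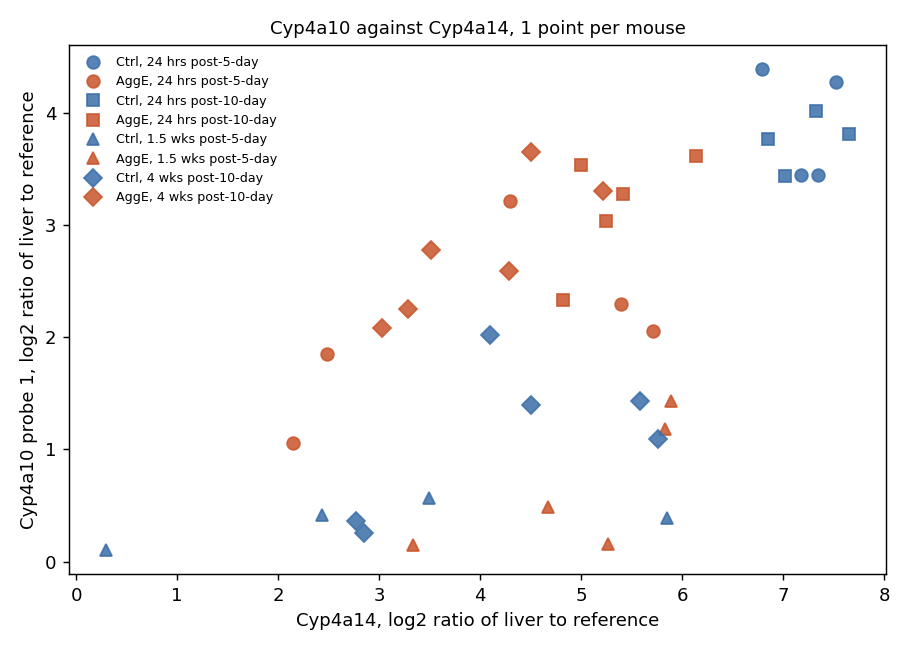
Level of Cyp4a10 probe 1 (vertical, log2 ratio) against Cyp4a14 (horizontal, log2 ratio), 1 point per mouse, with colour for Ctrl and AggE and shape for the time. The 8 Ctrl mice at 24 hrs stand apart at the upper right, and the AggE mice at 4 wks (orange diamonds) lie above the Ctrl mice of the same time (blue diamonds) over the same span of Cyp4a14.

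Differences between the contrasts were described for the same probes. From 24 hrs to 1.5 wks post-5-day stressor the AggE-minus-Ctrl difference of Cyp4a14 went from -3.20 to 1.98, a change of -5.18 ± 1.09 taken as the earlier minus the later value. For Cyp4a31 probe 1 this was -2.76 ± 0.54 and for Cyp4a10 probe 1 -2.11 ± 0.52. From 24 hrs to 4 wks post-10-day stressor it was -2.28 ± 0.49 for Cyp4a10 probe 1 and -1.60 ± 1.02 for Cyp4a14. Between the 5-day and the 10-day regimen at 24 hrs, Cyp4a14 differed by -1.32 ± 1.09 (-0.85 without AggE mouse 4 of the 5-day regimen) and Cyp4a10 probe 1 by -1.20 ± 0.52. Cyp4a31 probe 1 differed by -0.60 ± 0.54, and the Cyp4a12a probes by -0.98 ± 0.58 and -0.54 ± 0.78. The 95% intervals of Cyp4a31 probe 1, the Cyp4a12a probes and Cyp4a14 (-3.53 to 0.90) included 0. Under the 7 other normalizations Cyp4a14 kept the sign of all these differences, whereas from the renormalized processed signals Cyp4a10 probe 1 turned for the 5-day against the 10-day regimen (0.81) and for 24 hrs against 1.5 wks (0.66), and Cyp4a31 probe 1 for 24 hrs against 1.5 wks (0.70).

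The levels in Ctrl mice themselves differed between the times. Cyp4a14 averaged 7.21 ± 0.31 (SD, n = 4) and 7.21 ± 0.35 (n = 4) in the Ctrl mice at 24 hrs, against 3.02 ± 2.31 (n = 4) at 1.5 wks and 4.26 ± 1.29 (n = 6) at 4 wks. Cyp4a10 probe 1 averaged 3.89 ± 0.51 and 3.76 ± 0.24 at 24 hrs, against 0.37 ± 0.19 at 1.5 wks and 1.09 ± 0.68 at 4 wks. For both genes every Ctrl mouse at 24 hrs lay above every later Ctrl mouse. The Ctrl mice at 1.5 wks were 18.2-fold below those at 24 hrs post-5-day for Cyp4a14, and Cyp4a10 probe 1 differed by -3.52 ± 0.39 (log2, SE). Without Ctrl mouse 3 at 1.5 wks the Cyp4a14 value was 9.73-fold and without Ctrl mouse 4 it was 35.1-fold. The Ctrl mice at 4 wks were 7.73-fold and, for Cyp4a10 probe 1, 6.34-fold below those at 24 hrs post-10-day.

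Cyp4a31 probe 1 followed, at 6.07 ± 0.28 and 5.44 ± 0.16 at 24 hrs, 4.12 ± 1.11 at 1.5 wks and 4.06 ± 0.41 at 4 wks in Ctrl mice. Cyp4a12a probe 1 ran at 4.44 ± 0.24, 3.99 ± 0.32, 3.65 ± 0.82 and 4.50 ± 0.19 in the same order. At 1.5 wks it was thus -0.79 ± 0.43 (log2, SE) from the Ctrl mice at 24 hrs post-5-day, and probe 2 of the same gene was 2.23-fold lower (-1.16 ± 0.55). At 4 wks, against 24 hrs post-10-day, the probes differed by 0.51 ± 0.39 and -0.07 ± 0.55. Between the Ctrl groups, 4 of 7 probes were lower by 2-fold or more at 1.5 wks than at 24 hrs, as were 2.09% of all probes, and 3 of 7 at 4 wks, as were 0.548% of all probes. Time and slide cannot be told apart between these groups. Nor can time and scan day post-10-day, since the Ctrl mice at 24 hrs and at 4 wks were scanned on different days. The share of RefSeq probes well above background was 33.3% to 40.2% at 24 hrs post-5-day and 24.5% to 50.6% at 1.5 wks. It was 39.7% to 54.5% at 24 hrs post-10-day and 56.4% to 79.6% at 4 wks, and its part in the Ctrl levels was not tested. The lower later levels held under all 7 other normalizations for Cyp4a14 and Cyp4a10 probe 1, the smallest being -1.45 and -2.16 at 1.5 wks and -0.94 and -0.99 at 4 wks, while Cyp4a31 probe 1 turned at 1.5 wks from the renormalized processed signals (0.44). At 1.5 wks Cyp4a12a probe 1 kept its sign under only 3 of the 7 and probe 2 under 5. From the renormalized processed signals they were at 1.37 and 0.25.

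In the order of its 8 group means, Cyp4a14 was highest in Ctrl at 24 hrs post-10-day and post-5-day, then in AggE at 24 hrs post-10-day (5.32) and at 1.5 wks (5.00), in Ctrl at 4 wks (4.26), in AggE at 24 hrs post-5-day (4.00) and at 4 wks (3.97), and last in Ctrl at 1.5 wks (3.02). Only the step from the Ctrl to the AggE mice at 24 hrs separated neighbours whose ranges did not meet. Cyp4a10 probe 1 ran from Ctrl at 24 hrs (3.89 and 3.76) through AggE at 24 hrs post-10-day (3.16), at 4 wks (2.78) and at 24 hrs post-5-day (2.09) to Ctrl at 4 wks (1.09), AggE at 1.5 wks (0.68) and Ctrl at 1.5 wks (0.37). All neighbours in that order overlapped. Cyp4a31 probe 1 began with Ctrl at 24 hrs post-5-day (6.07) and post-10-day (5.44), which did not overlap, and went on to AggE at 1.5 wks (5.20) and then to 5 groups between 4.40 and 3.62 whose neighbours overlapped. Cyp4a12a probe 1 ran only from 4.50 in Ctrl at 4 wks to 3.00 in AggE at 24 hrs post-5-day, with every neighbour overlapping.

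Across the 39 mice the members varied together to different degrees, which is a description over arrays that share groups and slides. Pearson's r was 0.76 between Cyp4a14 and Cyp4a31 probe 1, 0.64 between Cyp4a14 and Cyp4a10 probe 1, and 0.73 between the probes of Cyp4a12a. After the group means were subtracted these were 0.60, 0.52 and 0.70. Cyp4a12a probe 1 had r = 0.28 with Cyp4a10 probe 1 and 0.38 with Cyp4a14, and 0.53 and 0.44 within groups. The probes of Cyp4a10 had r = 0.40, and the dim one stayed between -0.61 and 1.90 while the bright one spanned 0.10 to 4.39.

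Among 11240 probes well above background on at least 20 arrays, the genes most like Cyp4a14 over the 39 arrays were Aldh3a2 (r = 0.72, and 0.69 after subtracting group means), Zmynd11 (0.71), Dennd5b (0.69), Fabp2 (0.69) and Ces1f (0.68). Aldh3a2 is the fatty aldehyde dehydrogenase that acts after omega hydroxylation. The genes most like Cyp4a10 probe 1 were Pcca (0.88), Dgat2, which makes triglyceride (0.88), the glucose transporter gene Slc2a2 (0.88), Acp5 (0.88) and Repin1 (0.87). Within groups these fell to between 0.48 and 0.66. Cyp4a12a probe 1 was most like Hsd3b4 (0.77), Cmc4 (0.74), Gramd3 (0.72), Slc26a1 (0.72) and Cyb5rl (0.71).

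The other genes of the pathway were taken from lists of the electron supply and later steps of omega oxidation, other CYP4 enzymes, other PPARα targets, PPARα with its partners, male-biased and female-biased liver genes, and genes of the pericentral and periportal lobule, 136 measured genes in all. At 24 hrs post-5-day stressor 1 was lower and 3 were higher in AggE mice at an adjusted p of 0.05 or less in limma (2.94%). At 24 hrs post-10-day stressor 1 was higher and none was lower (0.735%), at 1.5 wks none was called, and at 4 wks 5 were higher and 3 lower (5.88%). These counts stand beside 3.23%, 0.0734%, 0% and 3.44% of all probes at the same limit. With the slide as a random block no pathway gene was called at 24 hrs post-5-day or post-10-day. With the slide as a fixed block only 1 was called at 4 wks, so most calls named below for that time did not hold there.

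Among 32 other PPARα targets measured, 26 had a lower mean in the AggE group 24 hrs post-5-day, and the median was -0.18. Acot1, a cytosolic thioesterase that frees fatty acids from CoA, fell by 1.16 ± 0.24 (log2, adjusted p = 0.00708) without overlap of the groups, and was well above background in 2 of 5 AggE and 4 of 4 Ctrl mice. Its call was lost with the slide as a random block. At 24 hrs post-10-day stressor 24 of 32 were lower (median -0.17) and none was called, Acot1 being at -0.95 ± 0.26 (adjusted p = 0.508) and Ucp2 at 0.19 ± 0.08 (adjusted p = 1). At 1.5 wks 21 of 32 were higher (median 0.03), with none called. At 4 wks 22 of 32 were higher (median 0.09), and Hadha, of mitochondrial beta-oxidation (0.82 ± 0.11, adjusted p = 0.000295), and Acot1 (0.86 ± 0.21, adjusted p = 0.0244) rose. The medians over all probes were within 0.012 of 0 at each time.

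**Figure D5:**
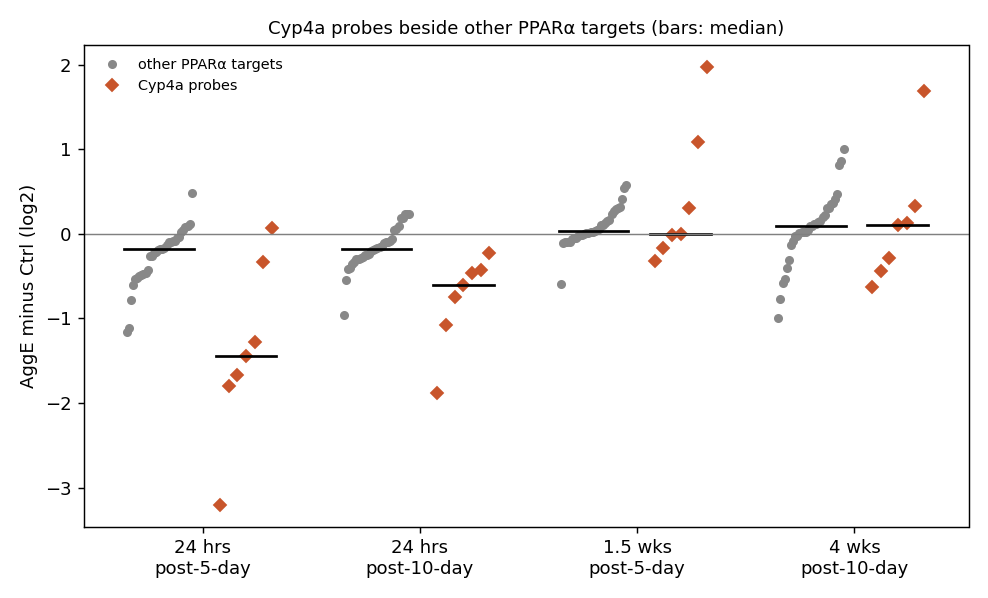
AggE-minus-Ctrl difference (log2) of 32 other PPARα targets (grey) and the 7 Cyp4a probes (orange) at the 4 times, each point a gene or probe and each bar a median. The medians of the other targets are -0.18, -0.17, 0.03 and 0.09, and those of the Cyp4a probes are -1.44, -0.60, -0.006 and 0.10.

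The receptor and the electron donor were not called at any time. Ppara, which encodes PPARα, differed by -0.26 ± 0.30 (adjusted p = 0.747), 0.08 ± 0.30 (1), 0.16 ± 0.30 (1) and -0.35 ± 0.26 (0.461) at 24 hrs post-5-day, 24 hrs post-10-day, 1.5 wks and 4 wks. Por, the reductase that passes electrons to cytochromes P450, differed by -0.15 ± 0.33 (adjusted p = 0.896), 0.13 ± 0.33 (1), -0.30 ± 0.33 (1) and -0.25 ± 0.29 (0.683). Among the 23 genes of PPARα, its partners and other regulators, none was called at any of the 4 times. The genes of that list with the smallest p were Pparg at 24 hrs post-5-day (-0.43 ± 0.17, adjusted p = 0.168), Bcl6 at 24 hrs post-10-day (1.07 ± 0.37, adjusted p = 1) and Med1 at 4 wks (-0.18 ± 0.07, adjusted p = 0.139).

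Of the 25 genes of electron supply and later steps, none was called at any of the 4 times. Aldh3a2 differed by -0.48 ± 0.20 (adjusted p = 0.195), -0.27 ± 0.20 (1), 0.54 ± 0.20 (1) and 0.02 ± 0.17 (0.961), so that its sign at 24 hrs and 1.5 wks was that of Cyp4a14. Nearest the limit at 24 hrs post-5-day stressor were the peroxisomal thioesterase gene Acot8 (-0.36 ± 0.11, adjusted p = 0.0586) and Ehhadh, of peroxisomal beta-oxidation (-1.11 ± 0.36, adjusted p = 0.083), and at 4 wks the peroxisomal thiolase gene Acaa1a (-0.46 ± 0.14, adjusted p = 0.0576) and Slc27a2 (-0.94 ± 0.29, adjusted p = 0.0618). Of 8 other CYP4 enzymes measured, 8 had a lower mean at 24 hrs post-5-day stressor (median -0.16) and 8 a higher mean at 1.5 wks (median 0.20), while at 24 hrs post-10-day stressor 4 were lower and 4 higher (median -0.006), and none was called at these times. Cyp4f16 and Cyp4f39 were not well above background on any array of the groups taken 24 hrs post-5-day. At 4 wks 3 were lower and 5 higher (median 0.28), of which Cyp4f39 rose (0.22 ± 0.05, adjusted p = 0.0181).

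Among female-biased liver genes, which Cyp4a12a as a male-biased gene was set beside, 3 of 16 rose at 24 hrs post-5-day stressor: Cyp2b9 (1.64 ± 0.44, adjusted p = 0.0311), Cyp2b13 (1.08 ± 0.28, adjusted p = 0.0252) and Abcd2 (0.42 ± 0.09, adjusted p = 0.00664), the last not well above background on any array of these groups. These 3 calls were lost with the slide as a random block. Of the 16 genes, 9 had a higher and 7 a lower mean in AggE mice (median 0.06), and Cyp3a16 (-0.89 ± 0.54, adjusted p = 0.423), Cyp3a41a (-0.61 ± 0.40, adjusted p = 0.468), Cyp2a4 (-0.55 ± 0.35, adjusted p = 0.45) and Cyp3a44 (-0.28 ± 0.49, adjusted p = 0.849) were among those with a lower mean and were not called. Cyp2b13 also rose at 24 hrs post-10-day stressor (1.81 ± 0.28, adjusted p = 0.000543), without overlap, but this call too was lost with the slide as a random block. At 4 wks the female-biased Cyp2a4 fell (-1.26 ± 0.30, adjusted p = 0.022). None of 15 male-biased genes was called at 24 hrs or 1.5 wks, Hsd3b5 being at -1.19 ± 0.40 (adjusted p = 0.0956) and Elovl3 at -1.80 ± 0.66 (adjusted p = 0.127) at 24 hrs post-5-day stressor, and C8a fell at 4 wks (-0.94 ± 0.27, adjusted p = 0.047).

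Of the lobule genes, 11 of 12 pericentral genes had a lower mean at 24 hrs post-5-day stressor (median -0.25, none called) beside 5 of 11 periportal genes (median 0.02, none called). None of either list was called at 24 hrs post-10-day stressor or at 1.5 wks. At 4 wks Glul, the pericentral glutamine synthetase gene, fell (-0.75 ± 0.20, adjusted p = 0.0323), and of the periportal genes Ass1, of the urea cycle (1.25 ± 0.36, adjusted p = 0.0456), and Aldh1b1 (0.76 ± 0.21, adjusted p = 0.0367) rose.

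Markers of cell types moved with some comparisons. At 24 hrs post-5-day stressor 1 of 7 pancreas markers was higher (Cela2a, 0.31 ± 0.09, adjusted p = 0.0415, not well above background on any array of these groups), with 0 called of 11 hepatocyte, 7 Kupffer cell, 8 kidney and 5 adipose markers. The mean hepatocyte marker level was 6.29 to 6.43 per mouse in Ctrl and 5.75 to 6.83 in AggE mice, so the AggE range enclosed that of the Ctrl mice. At 24 hrs post-10-day stressor 7 of 7 Kupffer cell markers had a higher mean in AggE mice (median 0.44, none called), with mean levels of 1.22 to 1.89 in Ctrl and 1.97 to 2.21 in AggE mice. At 4 wks 10 of 11 hepatocyte markers were lower (median -0.34), of which Tdo2 fell (-0.90 ± 0.25, adjusted p = 0.0385), Kupffer cell markers had a median of -0.44 with none called, and the adipose marker Lep was higher (0.31 ± 0.08, adjusted p = 0.0343). At 1.5 wks no marker was called, and the part of these markers in the Cyp4a values was not tested.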

How the data were processed

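Liver RNA of 39 mice (Cy-5) was hybridized with a common reference RNA (Cy-3), 1 array per mouse, without a dye swap. For each channel of a spot, the authors deposited its median intensity and that of its local background, the signals that Agilent Feature Extraction 11.5.1.1 (per the file headers; the methods name an earlier version) had background-corrected and dye-normalized, and log10 ratios of these, which the deposited series table also holds. Here, median intensities were background-corrected (normexp, offset 50), loess-normalized within and quantile-normalized between arrays in limma 3.58.1 (R 4.3.3, statmod 1.5.0, data.table version 1.17.8). Outlier spots were set to missing and the spots of a probe averaged. A RefSeq table gave the names of accessions, and slides and scan days came from the array headers.

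A single limma fit held 8 group means, and AggE was contrasted with Ctrl at each time. Calls used 2-fold with an unadjusted p of 0.05 or less, and Benjamini-Hochberg adjusted p-values over 25903 probes; fold changes of members have no p-value. The members and lists were chosen with earlier results of these data known. Each list gene entered by its brightest probe. Named are all members, up to 3 called genes per list and comparison or otherwise up to 2 with the smallest p (some of these left out), 4 uncalled female-biased genes chosen after their values were seen, and Ppara, Por and Aldh3a2. Tested on simulated data of 25903 probes, with 200 changed by 1.5 (log2) in each comparison, the fit recovered 199, 195, 198 and 198 in the order of the report, with 7, 11, 12 and 12 false calls. The simulated noise was independent between probes and held no slide effect, so effects of slides were not covered. Replicate numbers did not pair mice (correlations of -0.45 to 0.50 over 18 pairs), and no array was a copy of another. Few arrays per group limit the precision. Nothing states that slides are batches of extraction. Alternatives changed the background correction, normalization, probes, fit, blocks and arrays included.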

Additional observations from a re-analysis of the deposited data

Results flagged for a closer look

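For 2 of 55 combinations of probe and group tested, 1 mouse stood far from the others of its group, where chance gives about 1 in 20. Ctrl mouse 4 at 1.5 wks read 3.12 with Cyp4a12a probe 2, against 1.31 to 1.43 in the other 3, and was the only Ctrl mouse of that time scanned on the second day. Its array had 50.6% of RefSeq probes well above background, against 24.5% to 31.9%, and the part of this was not tested. With Cy-5 quantile-normalized alone it read 8.37 (log2), against 7.50 to 8.10. Relative to the array's 75th percentile it stood at 10.2 times, against 5.44 to 6.50 times. Ctrl mouse 1 at 24 hrs post-10-day stressor read 0.79 with Cyp4a31 probe 2, against 0.14 to 0.21 in the others, and was the only mouse of its group well above background with that probe.

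For 6 combinations every AggE mouse lay on one side of its Ctrl mean at one time and every AggE mouse on the opposite side at the other; these differences of the members were not tested. Between 24 hrs and 1.5 wks post-5-day stressor they were Cyp4a14 (-5.18) and Cyp4a31 probe 1 (-2.76). Without Ctrl mouse 3 at 1.5 wks these were -4.28 and -2.22, and AggE mice of that time then lay on both sides of the Ctrl mean. Between 24 hrs and 4 wks post-10-day stressor they were Cyp4a10 probe 1 (-2.28), Cyp4a10 probe 2 (-0.75) and Cyp4a31 probe 2 (-0.35). The values of both dim probes rest on Ctrl mouse 1 at 24 hrs post-10-day: without it they were -0.41 and -0.19, and AggE mice then lay on both sides of that Ctrl mean. Between the 5-day and 10-day regimens at 24 hrs it was Cyp4a31 probe 2 (0.30), which was well above background on 2 of 39 arrays, and which was 0.14 without the same Ctrl mouse and 0.19 without Ctrl mouse 2 at 24 hrs post-5-day, again with AggE mice on both sides of a Ctrl mean.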

How the results depend on the processing

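The median over the 7 Cyp4a probes kept its sign in all 21 alternatives at each 24-hr time. Post-5-day it was -1.44 and moved to -0.23 from the renormalized processed signals and to -2.27 both without normalization between arrays and with Aquantile, which leaves ratios as they are. Post-10-day it was -0.60 and moved to -0.19 (renormalized processed signals), -0.20 (series table) and -1.33 (no normalization between arrays, and Aquantile). At 4 wks it was 0.10 and moved to -0.68 (no normalization between arrays, and Aquantile) and -0.65 (slide as a fixed block). Single probes reversed post-5-day from the renormalized processed signals, though not from the series table (Cyp4a10 probe 1 0.94, Cyp4a12a probe 1 1.06, Cyp4a31 probe 1 1.33) and post-10-day from the series table (Cyp4a14 0.010). Post-10-day, AggE mouse 5 had a processed Cyp4a14 ratio of 2532, against a group median of 345. The cause of these reversals was not tested. Leaving out 1 mouse gave medians of -1.75 to -1.28, -0.71 to -0.41, -0.02 to 0.27 and -0.07 to 0.15 in the order of the report. The members called ranged over the alternatives from 2 to 5, 0 to 3, 0 to 2 and 0 to 2 of 7.

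The 4, 1, 0 and 8 other pathway genes called became, in the same order where they moved: without background subtraction 7, 0 and, at 4 wks, 2. From the renormalized processed signals they became 2, 0 and 2. With an offset of 16 there were 2 at 4 wks. Without normalization between arrays, and with Aquantile, they became 0, 0 and 13. In Cy-5 alone there were 7 at 24 hrs post-5-day and 1 at 4 wks, and from the log ratios of the series table there were 0 at 24 hrs post-10-day and 3 at 4 wks. With only the groups compared in the fit they became 0, 2 and 1. With only probes well above background there were 16 at 4 wks, with array weights 10 post-5-day and 17 at 4 wks, with the slide as a random block 0, 0 and 1, and with the slide as a fixed block 1 at 1.5 wks and 1 at 4 wks. Without 1 mouse there were 2 to 4 post-5-day and 1 to 17 at 4 wks. Over all probes, calls at the adjusted p were 836 (10 to 1768), 19 (6 to 90), 0 (0 to 42) and 892 (0 to 2487).

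With the replicate number as a block the Cyp4a medians were -1.75, -0.70, 0.01 and 0.10, and the pathway counts 1, 0, 0 and 0. The numbers do not pair the mice, and the block ended the call of Cyp4a31 probe 1 at 1.5 wks (1.08). The reference channel near background limits the ratios of Cyp4a10 probe 2 and Cyp4a31 probe 2 most. The Ctrl levels and the differences between comparisons, without 1 mouse and under other normalizations, were added after seeing the data.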
